A study of Mus musculus with 2 samples.

Results

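Heat shock proteins and chaperones were examined in immortalised mouse embryonic fibroblasts without and with p65, the NF-kB subunit encoded by Rela. The p65-null culture carried the p65-/- genotype and the wild-type culture p65+/+, both were labelled C57BL/6, and no treatment, passage, age or clone was named. RNA was sequenced in 1 library per genotype. Genotype and culture therefore cannot be told apart, nor can fewer cells of a kind from less RNA per cell. With nothing to measure the spread between cultures, the values are described without tests. The genes were chosen by symbol: those starting with Hsp, except Hspg2 and Hspbap1, those starting with Dnaja, Dnajb or Dnajc, and the subunit genes Cct2 to Cct8 with Tcp1. This gave 75 genes among the 16881 RefSeq transcripts of the table, and 69 of them reached a mean of 1 normalised CPM (fragment counts brought to a common library size) and were taken as measured.

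Chaperones bind proteins that are unfolded or misfolded and help them fold, assemble, cross membranes or reach degradation. HSP70 proteins work in cycles driven by ATP, in which J-domain proteins (the DNAJ families) deliver clients and stimulate hydrolysis, and HSP110 proteins release the nucleotide. HSP90 acts later on kinases, receptors and other clients, small heat shock proteins hold unfolded proteins without ATP, and the chaperonins HSP60 and TRiC enclose their clients in a chamber. Heat shock factor 1 induces many of the cytosolic genes when proteins misfold, while those of the endoplasmic reticulum respond to the unfolded protein response.

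The libraries held 15441394 fragments from p65-null and 20794476 from wild-type cells. Rela itself, with 198.5 and 1918 fragments, stood at 13.1 normalised CPM in the p65-null and 90.5 in the wild-type library, a log2 ratio of -2.79 (-3.01 to -2.58). Each ratio divides the p65-null by the wild-type level, with an exact 95% interval (Clopper-Pearson) for counting error alone. All 10 fibroblast markers looked up were measured in both libraries, with 8 of them above 0 in log2 ratio and a median of 0.65. Collagen genes stood highest (Col3a1 at 1.56, Col1a2 at 1.38, Col1a1 at 1.11 and Col5a1 at 1.07), and Thy1 at -3.10 and Pdgfrb at -0.41 lay below 0. Under the minimum were all 6 epithelial markers, with Krt18 at 23 fragments in the p65-null and 0 in the wild-type library and Cdh1 at 11 and 0, and the 3 skeletal muscle markers found, with Des at 16.5 and 4. Of the 4 haematopoietic markers found, 2 were measured, Cd68 with 61.5 fragments against 29 and Csf1r with 16 against 44, while Ptprc had 0 against 2. Of 3 neuronal markers found, Map2 was measured, at -0.27. The part of these markers in the chaperone ratios was not tested. Strand use in the counting was not stated.

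The chaperone genes as a whole stood lower in the p65-null library by a modest amount. Together they took 1.85% of its fragments, against 2.58% of the wild-type fragments, and the log2 ratio of their summed level was -0.43 (-0.43 to -0.42). The median log2 ratio of the 69 measured genes was -0.25, against -0.03 over all 12135 measured genes. Of the 69 genes, 47 (68.1%) lay below 0, where the share over all measured genes was 51.2%. The whole counting interval lay below 0 for 39 of the 69 (56.5%), against 41.2% of all measured genes.

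Large differences were not more frequent among chaperones than elsewhere. A log2 ratio of -1 or less was found for 8 of 69 (11.6%), near the 13.7% of all measured genes. A log2 ratio of 1 or more was found for 2 of 69 (2.9%), against 12.2% of all measured genes. In either direction these were 10 genes, where the share over all measured genes was 25.9%. The lower genes were Hspb1, Hspa4l, Hspa12a, Dnajc2, Hspa9, Dnajc21, Hsph1 and Hspa1b, and the higher ones Hspa12b and Hspa2. The whole interval lay past 2-fold for 7 of the lower genes, Hspb1, Hspa4l, Dnajc2, Hspa9, Hspa12a, Hsph1 and Dnajc21, and for both higher ones (9.1% and 7.95% of all measured genes). Just past the mark lay Hspa1b at -1.07 and Hsph1 at -1.13, and just short of it Hspa1l at -0.999, Dnajc4 at 0.99, Dnaja1 at -0.90 and Dnajb2 at 0.89.

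**Figure D1:**
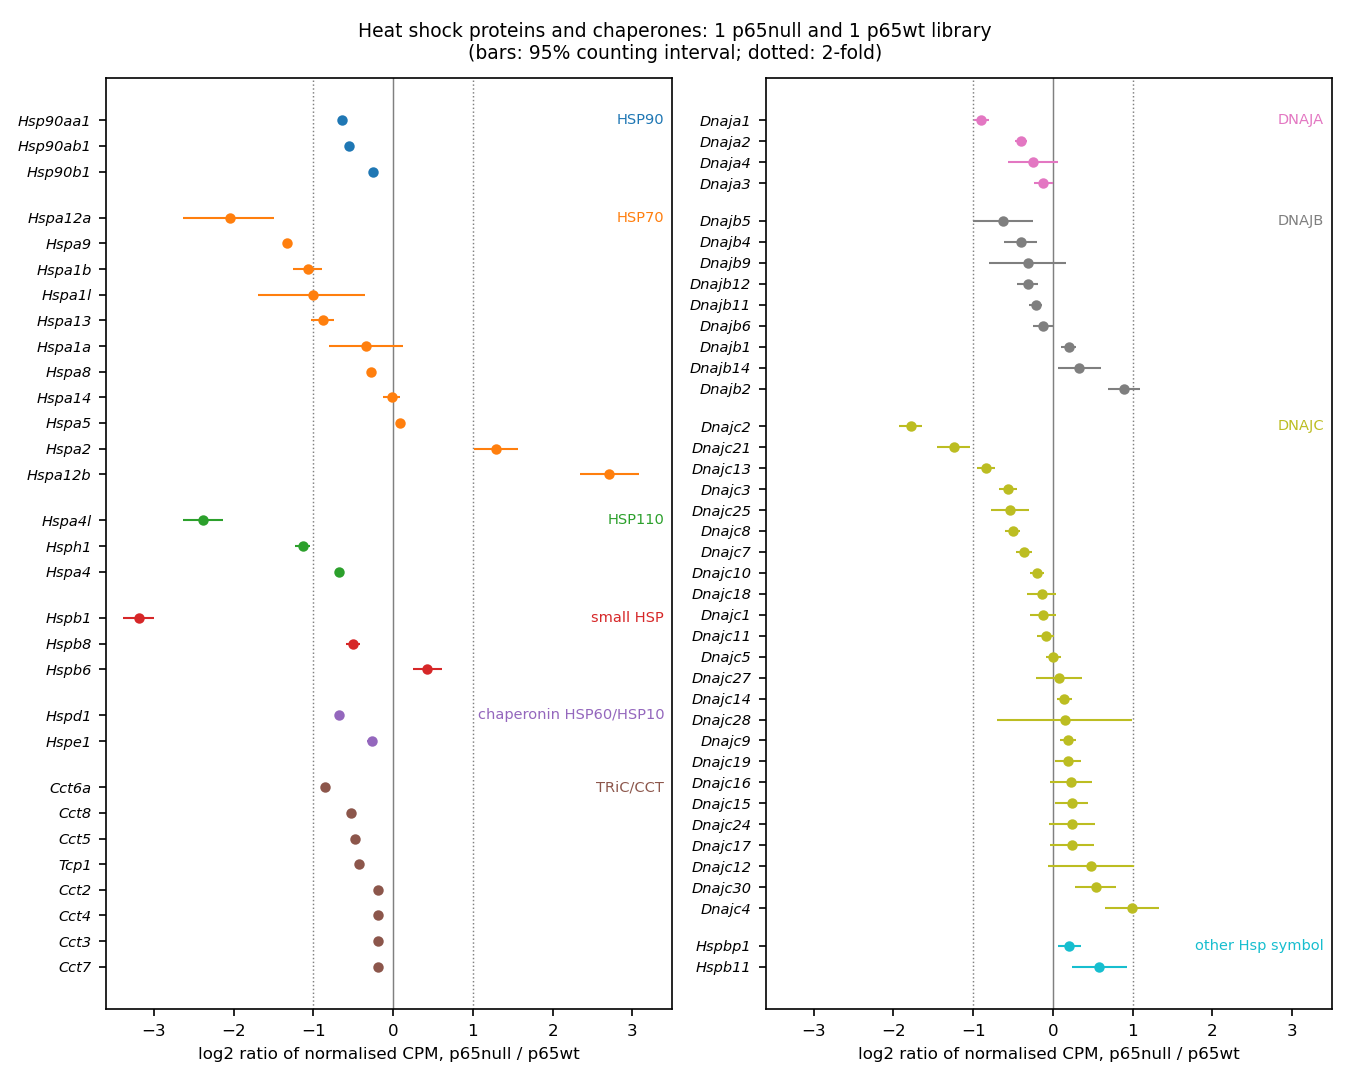
Log2 ratio of normalised CPM, p65-null over wild-type, for the 69 measured genes by family, with 95% counting intervals (horizontal bars) from 1 library per genotype. The HSP90, HSP110, chaperonin, TRiC and DNAJA genes all lie left of 0 (Hsp90b1, Cct4 and Dnaja2 lie right of it after the GC and length correction), while DNAJC genes lie on both sides.

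The ratios of individual genes moved with base composition and with the scaling. Across the measured genes the log2 ratio followed transcript GC content (Spearman 0.43 over 12059 genes, which share the same 2 libraries), and the measured chaperone transcripts had a median GC content of 47.4%, against 50.5% over all. After a loess correction for GC content and length, the chaperone median was -0.21 and that of all measured genes -0.09. Below 0 then lay 43 of the 69 genes, as did 55.6% of all genes. By 2-fold or more, 10 were then lower and 4 higher, against 10.2% and 10.4% of all genes. Ribosomal protein genes stood higher in the p65-null library, with a median of 0.45. Scaling to them moved the median of all genes by -0.41, to -0.44, and the chaperone median to -0.65, while upper quartile scaling moved the 2 medians to 0.09 and -0.14. With ribosomal protein scaling 61 of the 69 genes lay below 0, as did 71.2% of all genes, so that modest ratios above 0 given below hold under TMM scaling. The chaperone median lay below that of all genes under each of these scalings. Exons of some members overlap those of other genes in the annotation (Cct6a with Psph, Hspa12a with Eno4, Hspb6 with Lin37, Tcp1 with Mrpl18, Dnaja1 with Smu1 and Dnajc30 with Bud23, among others), and without strand their reads cannot be told apart. Corrected values are given below for genes that change side or cross 2-fold with the GC and length correction.

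**Figure D2:**
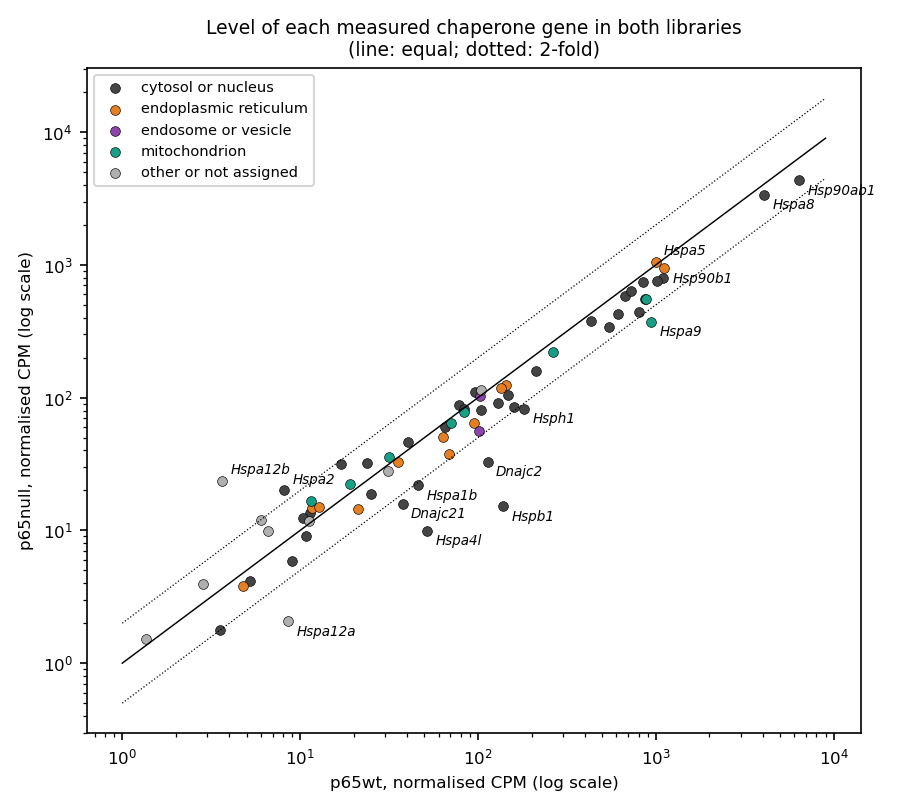
Normalised CPM of each measured chaperone gene in the p65-null library (vertical axis) against the wild-type library (horizontal axis), both on log scales and coloured by compartment. Most genes over 100 CPM lie below the line of equality, Hspb1 and Hspa4l lie far below the 2-fold line, and Hspa12b lies far above it.

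HSP90 was the family with the highest summed level, 5833 normalised CPM in the p65-null and 8366 in the wild-type library. All 3 genes under the symbol rule were lower in the p65-null library, Hsp90b1 only without the GC and length correction. Trap1, the mitochondrial HSP90 outside the rule, had a log2 ratio of 0.30 (0.22 to 0.39), or -0.0021 after the correction. Hsp90ab1 (NM_008302, chromosome 17, 45567778 to 45573261), the constitutive cytosolic form, had 4338 normalised CPM in the p65-null and 6379.9 in the wild-type library, a log2 ratio of -0.56 (-0.57 to -0.54). By mean level it ranked 6 among all measured genes. Hsp90aa1, the inducible cytosolic form, had 556 normalised CPM against 870.1, a log2 ratio of -0.65 (-0.68 to -0.61). The balance between the pair was nearly alike before the GC and length correction. Hsp90ab1 made up 88.6% of their fragments in the p65-null library (88.4% to 88.9%) and 88.0% in the wild-type library (87.8% to 88.2%). After the correction their log2 ratios lay further apart, -0.73 for Hsp90ab1 and -0.20 for Hsp90aa1. Hsp90b1, the form of the endoplasmic reticulum also called Grp94, differed less, with 939.6 normalised CPM against 1117 and a log2 ratio of -0.25 (-0.28 to -0.22), or 0.19 after the correction.

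HSP70 genes diverged among themselves, with a median log2 ratio of -0.34. Lower by 2-fold or more were 3 of 11 (27.3%), against 13.7% of all measured genes, and 2 (18.2%) were higher, against 12.2%. Hspa8 (NM_031165, chromosome 9, 40801276 to 40805202), the constitutive cytosolic Hsc70, held most of the family's message, with 3376 normalised CPM in the p65-null and 4078 in the wild-type library and a log2 ratio of -0.27 (-0.29 to -0.26). Hspa5, which encodes BiP, the HSP70 of the endoplasmic reticulum, had 1059 normalised CPM against 999, a log2 ratio of 0.08 (0.05 to 0.11). Hspa9 (NM_010481, chromosome 18, 34937414 to 34954351), the mitochondrial HSP70 also called mortalin, had 373 normalised CPM against 939, and was thus 2.51-fold lower (2.44 to 2.59). These abundant HSP70 genes thus had different ratios in each of the main compartments. Of all HSP70 fragments, Hspa9 took 7.46% in the p65-null library (7.28% to 7.65%) and 15.0% in the wild-type library (14.8% to 15.2%), and Hspa5 took 21.2% against 16.01%.

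The heat-inducible pair Hspa1a and Hspa1b, which lies on chromosome 17, was scarce in both libraries. Hspa1b (NM_010478, 34956429 to 34959238) had 331 fragments, or 21.9 normalised CPM, in the p65-null library and 973.5 fragments, or 45.9 normalised CPM, in the wild-type library, a log2 ratio of -1.07 (-1.26 to -0.89). Hspa1a (NM_010479, 34969359 to 34972156) had 62.5 fragments against 110.5, a log2 ratio of -0.34 (-0.81 to 0.12). The longest open reading frames of the pair are 99.5% identical, and how reads of such copies were assigned was not stated, so the split between them is uncertain. Summed over both, the log2 ratio was -0.98 (-1.15 to -0.81), and the pair took 0.519% of HSP70 fragments in the p65-null and 0.819% in the wild-type library. Hspa1l, a neighbour best known from testis, had 27 fragments against 75.5 and a log2 ratio of -0.999 (-1.69 to -0.35), or -1.35 after the correction.

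The remaining HSP70 genes included the ones with the highest ratios. Hspa12b (NM_028306, chromosome 2, 131127412 to 131145985), an atypical member best known from endothelium, had 359.5 fragments in the p65-null and 77 in the wild-type library, and was 6.53-fold higher (5.10 to 8.47). Its relative Hspa12a (chromosome 19, 58795750 to 58943672) went the other way, with 31.5 fragments against 182, and was 4.13-fold lower (2.82 to 6.23). Of the 4 endothelial markers looked up, Kdr alone reached the minimum, at 1.91 normalised CPM in the p65-null and 3.26 in the wild-type library. Tek had 3 fragments in the p65-null and 0 in the wild-type library, Cdh5 had 0 against 1, Pecam1 had 1 against 2, and the summed level of the 4 was 2.18 normalised CPM there against 3.397. Hspa2, which is needed for sperm development, had 303 fragments against 173, a log2 ratio of 1.29 (1.02 to 1.57), or 0.95 after the correction. Hspa13, a microsomal form, had a log2 ratio of -0.88 (-1.02 to -0.74) and Hspa14, which works at the ribosome, of -0.02 (-0.12 to 0.09).

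HSP110 genes, whose products are nucleotide exchange factors of HSP70, were lower throughout, with a median log2 ratio of -1.13, or -1.02 after the correction. Hspa4 had 342 normalised CPM in the p65-null and 548 in the wild-type library, a log2 ratio of -0.68 (-0.73 to -0.63). Hsph1 (NM_013559, chromosome 5, 149616843 to 149636498), the heat-inducible Hsp105, had 82.7 against 181 and a log2 ratio of -1.13 (-1.22 to -1.04). Hspa4l (NM_011020, chromosome 3, 40744500 to 40796103) had 9.97 against 52.0 normalised CPM and was 5.21-fold lower (4.39 to 6.22). The corrected log2 ratio of Hspa4l was -1.25, its transcript being long and of 39.5% GC.

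Among small heat shock proteins, Hspb1 stood furthest below 0. Hspb1 (NM_013560, chromosome 5, 135887919 to 135889563), which encodes Hsp25, the mouse form of human HSP27, had 229.5 fragments, or 15.1 normalised CPM, in the p65-null library and 2925.5 fragments, or 138 normalised CPM, in the wild-type library. The level was 9.11-fold lower (7.96 to 10.5). Hspb8, a partner of Bag3 in selective autophagy, had 104 normalised CPM against 147 and a log2 ratio of -0.50 (-0.59 to -0.41). Hspb6, or Hsp20, had 32.2 against 23.9 and a log2 ratio of 0.43 (0.25 to 0.61), or 0.0048 after the correction. Hspb1 took 9.89% of small heat shock protein fragments in the p65-null library (8.70% to 11.2%) and 44.5% in the wild-type library (43.3% to 45.7%). Cryab, a small heat shock protein gene outside the symbol rule and named after its values were seen, had a log2 ratio of -0.57 (-0.69 to -0.45).

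Promoter sequence was set beside these values. The heat shock element repeats GAA in alternating orientation, with 2 free bases between units. In the 250 bases before each start of the RefSeq promoter table (GRCm38.p6), 3 units in a row (GAA, TTC and GAA, or TTC, GAA and TTC, each 2 free bases apart, which covers both strands) were found in 0.466% of all 32851 promoters. Members with a promoter in the table numbered 61, and 3 of them (4.92%), Hspd1, Hspe1 and Dnajb6, held such a run, against 0.436% of measured genes. A gene counted if any of its starts held a match. Hsp90aa1, Hsp90ab1, Hspa8, Hspa9 and Dnajc2, among other members, had no promoter there, so whether they hold the element was not examined. Pairs of units are GAA then TTC, or TTC then GAA, and also lie within the longer run. They were found for 15 of the 61 (24.6%), against 11.8% of measured genes and 12.8% of all promoters. Of those 15 genes, all measured, 13 lay below 0 with a median log2 ratio of -0.34 and 3 were at least 2-fold lower. Over all measured genes, 51.2% lay below 0 and 13.7% were at least 2-fold lower. The 15 genes include Hspa1a and Hspa1b, between which the split of reads is uncertain. The part of the element in these ratios was not tested. The 42 measured members without a pair had a median of -0.18, with 25 below 0, 3 at least 2-fold lower and 2 at least 2-fold higher. Only exact strings in the 250 bases were counted, so members without a match, Dnajb1 among them, are not shown to lack the element. The 3 genes with the longer run had a median of -0.26, all lay below 0, and 0 of 3 were past 2-fold. The sequences below are those of genes whose ratios are described here, with the matches in capitals, and Hspa1a and Hspa1b hold the same element.
Hspb1, chr5:135887769-135887918, plus strand, with 2 pairs of units: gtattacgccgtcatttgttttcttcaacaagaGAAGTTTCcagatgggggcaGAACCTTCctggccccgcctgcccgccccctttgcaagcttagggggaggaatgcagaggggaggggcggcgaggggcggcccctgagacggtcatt
Hspa1a, chr17:34972157-34972306, minus strand, with 1 pair: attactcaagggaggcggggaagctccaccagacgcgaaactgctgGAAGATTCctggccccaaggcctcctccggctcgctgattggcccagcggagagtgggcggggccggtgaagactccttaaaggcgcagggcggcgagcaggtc
Hspa1b, chr17:34959239-34959388, minus strand, with 1 pair: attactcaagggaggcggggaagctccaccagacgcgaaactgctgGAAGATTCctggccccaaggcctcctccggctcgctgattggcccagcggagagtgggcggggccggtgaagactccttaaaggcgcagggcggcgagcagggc
Hsph1, chr5:149636355-149636384, minus strand, with 1 pair: cattgggtagaatctTTCTCGAAggctcga
Dnajb6, chr5:29735748-29735897, plus strand, with 3 units in a row: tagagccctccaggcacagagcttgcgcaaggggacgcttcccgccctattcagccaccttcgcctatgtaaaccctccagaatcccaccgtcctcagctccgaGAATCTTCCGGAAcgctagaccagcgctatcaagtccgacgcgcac
Hspe1, chr1:55088054-55088083, plus strand, with 2 overlapping runs of 3 units, which the window of Hspd1 on the other strand also holds: gtccgTTCTAGAACCTTCCGGAAggccccg

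The 250-base windows of Hspa1a and Hspa1b differed by 3 edits (98.8% identical). The kappaB consensus, the sequence that NF-kB binds, was found in the window of 1 of the 61 members (1.64%), Dnajb5, and in 3.9% of all promoters and 5.51% of measured genes. Dnajb5 had 5.84 normalised CPM in the p65-null and 9.01 in the wild-type library, a log2 ratio of -0.63 (-1.01 to -0.25), or -1.04 after the correction. A match is a string of letters, and binding was not measured.

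The mitochondrial chaperonin genes Hspd1 and Hspe1, which encode HSP60 and its lid HSP10, lie head to head on chromosome 1 and share a promoter region. Hspd1 (NM_010477, 55077833 to 55088243) had 554 normalised CPM in the p65-null and 884 in the wild-type library, a log2 ratio of -0.67 (-0.71 to -0.64). Hspe1 (NM_008303, 55088148 to 55091317) had 220.3 against 264, a log2 ratio of -0.26 (-0.32 to -0.20). The 2 ratios differed by more than counting error, although exons of the pair overlap in the annotation. After the GC and length correction they were -0.58 and -0.56.

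TRiC, the cytosolic chaperonin that folds actin and tubulin, is a ring of subunits encoded by Tcp1 and the Cct genes. All 8 measured subunit genes were lower in the p65-null library, with a median log2 ratio of -0.31. Their whole intervals, narrow for genes this abundant, lay below 0, against 41.2% of all measured genes. Past 2-fold lay 0 of 8, against 25.9% of all measured genes. Cct6a had the lowest ratio, with 443 normalised CPM in the p65-null and 803 in the wild-type library and a log2 ratio of -0.86 (-0.90 to -0.82). Cct8, Cct5 and Tcp1 had log2 ratios of -0.52, -0.48 and -0.43. The other 4, Cct2, Cct3, Cct4 and Cct7, had log2 ratios between -0.19 and -0.18, and their intervals overlapped. After the correction, Cct4 lay at 0.09 and the other 7 remained below 0.

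**Figure D3:**
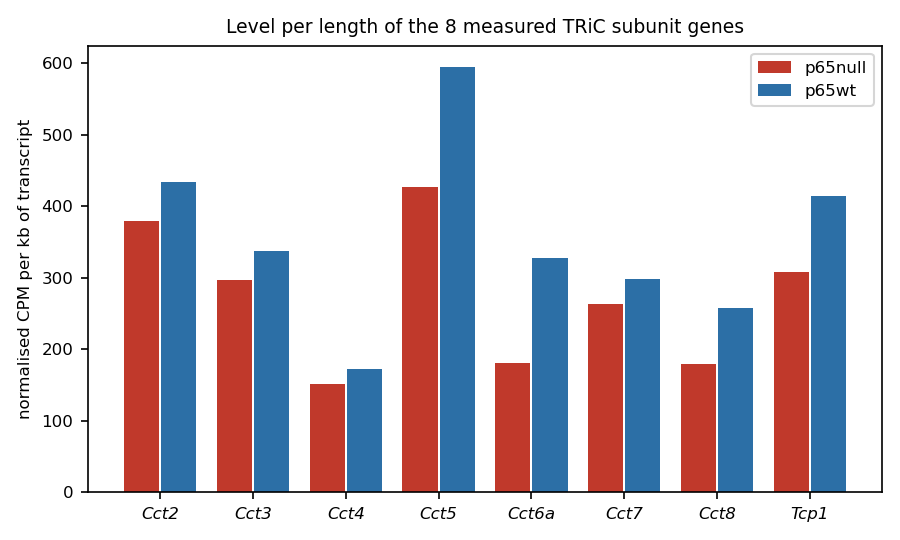
Level per transcript length (normalised CPM per kb) of the 8 measured TRiC subunit genes in the p65-null library (red, left) and the wild-type library (blue, right). Each subunit gene is lower in the p65-null library (Cct4 only without the GC and length correction), and Cct6a differs most as a ratio, at 180.4 against 327, while Cct5 differs most in level, at 427 against 595.

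Per length, TRiC messages spanned a similar range in both libraries. In the p65-null library they ran from 151 normalised CPM per kb for Cct4 to 427 for Cct5, a 2.82-fold span. In the wild-type library they ran from 173 for Cct4 to 595 for Cct5, a 3.44-fold span. The coefficient of variation over the 8 genes was 36.4% in the p65-null and 36.0% in the wild-type library. Cct6b, a subunit gene best known from testis, had 6.5 fragments in the p65-null and 0.5 in the wild-type library and fell under the minimum.

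J-domain proteins formed the largest group, with 37 of 39 genes measured and a median log2 ratio of -0.12, or 0.03 after the correction. At least 2-fold lower were 2 of 37 (5.41%), against 13.7% of all measured genes. All 4 DNAJA genes lay below 0, Dnaja2 only without the correction. Dnaja1, a cytosolic partner of Hsc70, had 85.5 normalised CPM in the p65-null and 160 in the wild-type library, a log2 ratio of -0.90 (-0.99 to -0.81), or -0.18 after the correction. Dnaja2 had 160 against 211 and a log2 ratio of -0.40 (-0.47 to -0.33), or 0.21 after the correction. Mitochondrial Dnaja3 was at -0.12 and Dnaja4 at -0.25. The larger of these differences belonged to transcripts of 41.5% and 42.6% GC, and their part in them was not tested.

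DNAJB genes lay within 2-fold, where 25.9% of all measured genes lay past it, and had a median of -0.22. Below 0 lay 6 of 9, against 51.2% of all measured genes. After the correction 5 of 9 lay below 0, the median was -0.08, and 1 gene lay past 2-fold in each direction. Dnajb1, the main heat-inducible Hsp40, had 111 normalised CPM in the p65-null and 96.2 in the wild-type library, a log2 ratio of 0.20 (0.11 to 0.30), or -0.08 after the correction. Dnajb2, best known from neurons, was highest in the family, with 31.5 against 17.0 and a log2 ratio of 0.89 (0.69 to 1.09). Dnajb6, which suppresses aggregation, was at -0.12 (-0.24 to 0.00) and Dnajb4 at -0.41, or 0.36 after the correction. Dnajb5 had the lowest ratio of the family.

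DNAJC genes were evenly divided, with 11 of 24 measured genes below 0 and a median log2 ratio of 0.04, or -0.014 with total counts and -0.36 with ribosomal protein scaling. The lowest were Dnajc2 and Dnajc21, both tied to ribosomes. Dnajc2 (NM_009584, chromosome 5, 21757266 to 21785264), the J-domain partner of Hspa14 at the ribosome, had 32.9 normalised CPM in the p65-null and 113 in the wild-type library, and was 3.44-fold lower (3.12 to 3.80). Hspa14, by contrast, had 82.7 against 83.8. Dnajc21 (NM_030046, chromosome 15, 10446763 to 10470568), a factor of large ribosomal subunit maturation, had 15.9 against 37.65 and was 2.37-fold lower (2.05 to 2.75). The corrected log2 ratios of this pair were -1.61 and -1.22.

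Other cytosolic and nuclear DNAJC genes differed less. Dnajc8, a nuclear protein of the splicing machinery, had 91.8 normalised CPM in the p65-null and 130.4 in the wild-type library, a log2 ratio of -0.51, and Dnajc7, which binds both HSP70 and HSP90, was at -0.36. Dnajc9, a histone chaperone, was at 0.19 (0.08 to 0.29). Dnajc17 and Dnajc24 were both at 0.24, with intervals that held 0, Dnajc17 being at -0.20 after the correction. On vesicles and endosomes, Dnajc13, which acts in endosomal sorting, had 56.4 against 101 normalised CPM and a log2 ratio of -0.84 (-0.96 to -0.72), and Dnajc5, the cysteine string protein, was at 0.01 (-0.09 to 0.10), or -0.14 after the correction. Dnajc4 had the highest ratio among measured DNAJC genes, at 0.99 (0.66 to 1.33), with 182 fragments against 128. Dnajc14 was at 0.14, Dnajc12 at 0.47, Dnajc27 at 0.08, Dnajc28 at 0.15 and Dnajc18 at -0.14, the last being 0.04 after the correction.

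Chaperones of the endoplasmic reticulum stood closest to equality in summed level among the 3 main compartments. None of the 12 was at least 2-fold apart, against 25.9% of all measured genes, and 9 (75%) lay below 0, against 51.2%. The log2 ratio of their sum was -0.13 (-0.15 to -0.11). Beside Hspa5 and Hsp90b1, the BiP partners Dnajb11, Dnajc10 and Dnajc3 had log2 ratios of -0.22, -0.20 and -0.56, Dnajc10 and Dnajc3 being at 0.20 and 0.03 after the correction. Dnajb9 was at -0.32 (-0.81 to 0.16), or 0.48 after the correction. The membrane proteins Dnajb12 and Dnajb14 were at -0.31 and 0.33, Dnajb14 being at 1.14 after the correction, and Dnajc1, Dnajc16 and Dnajc25 were at -0.13, 0.23 and -0.54. After the correction 5 of the 12 lay below 0 and their median was 0.08, so the direction of this group rests on leaving GC content and length as they are.

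The endoplasmic reticulum stress element (CCAAT, 9 free bases and CCACG, on either strand) was found in the windows of Hspa5, Hsp90b1 and Dnajc3. These were 3 of the 61 members (4.92%), against 0.166% of measured genes and 0.113% of all promoters. The log2 ratios of the 3 genes, 0.08, -0.25 and -0.56, differed by more than counting error, and were 0.19, 0.19 and 0.03 after the correction. Their windows are shown with the element in capitals, as the matches shared by these BiP, Grp94 and co-chaperone genes.
Hspa5, chr2:34771940-34772089, plus strand: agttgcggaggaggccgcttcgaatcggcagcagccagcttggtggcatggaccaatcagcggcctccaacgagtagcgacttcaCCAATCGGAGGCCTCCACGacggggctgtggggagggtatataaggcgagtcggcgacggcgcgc
Hsp90b1, chr10:86705445-86705694, minus strand, with 2 matches: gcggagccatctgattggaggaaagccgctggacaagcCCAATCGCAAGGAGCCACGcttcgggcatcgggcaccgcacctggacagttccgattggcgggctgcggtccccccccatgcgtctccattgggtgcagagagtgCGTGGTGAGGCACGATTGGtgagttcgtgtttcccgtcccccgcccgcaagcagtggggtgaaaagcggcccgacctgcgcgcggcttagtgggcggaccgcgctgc
Dnajc3, chr14:118937782-118937931, plus strand: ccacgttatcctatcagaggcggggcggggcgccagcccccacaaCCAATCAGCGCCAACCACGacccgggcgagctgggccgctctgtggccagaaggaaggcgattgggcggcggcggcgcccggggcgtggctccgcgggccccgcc

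By compartment, the 38 measured cytosolic or nuclear genes had a median log2 ratio of -0.40, or -0.37 after the correction. Of these, 30 (78.9%) lay below 0 and 6 (15.8%) were at least 2-fold lower, against 51.2% and 13.7% of all measured genes. The 8 mitochondrial genes had a median of -0.11, or -0.34 after the correction and 0.0069 with upper quartile scaling, with 5 below 0. Their summed level differed more, with a log2 ratio of -0.75 (-0.78 to -0.73), since Hspa9 and Hspd1 hold most of it. The inner membrane and import proteins Dnajc19, Dnajc15 and Dnajc30 had log2 ratios of 0.19, 0.23 and 0.54, Dnajc19 being at 1.03 after the correction, and Dnajc11, of the cristae-organising complex, was at -0.09. Of all chaperone fragments, mitochondrial genes took 7.26% in the p65-null library (7.16% to 7.36%) and 9.11% in the wild-type library (9.03% to 9.19%), and those of the endoplasmic reticulum took 13.1% (13.0% to 13.3%) and 10.7% (10.6% to 10.8%).

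**Figure D4:**
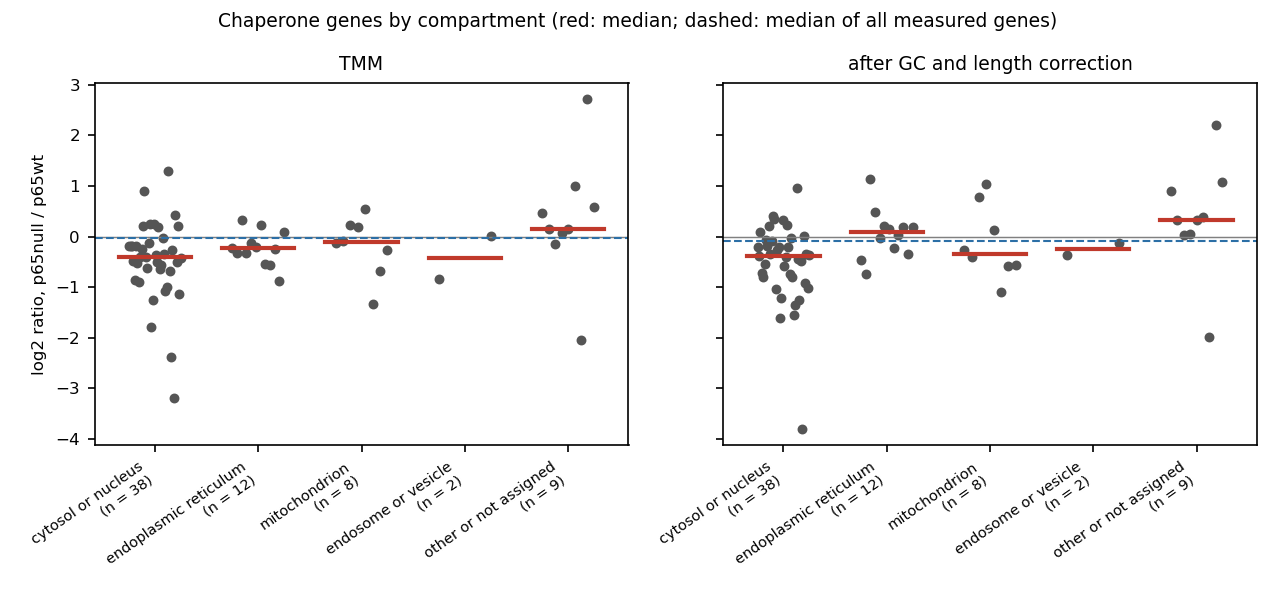
Log2 ratio, p65-null over wild-type, of each measured chaperone gene by compartment, with TMM scaling (left) and after the GC and length correction (right). Red lines are medians and the dashed line is the median of all measured genes. Cytosolic or nuclear genes lie mostly below 0 in both panels, while the median of the endoplasmic reticulum genes is -0.23 in the left and 0.08 in the right panel.

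**Figure D5:**
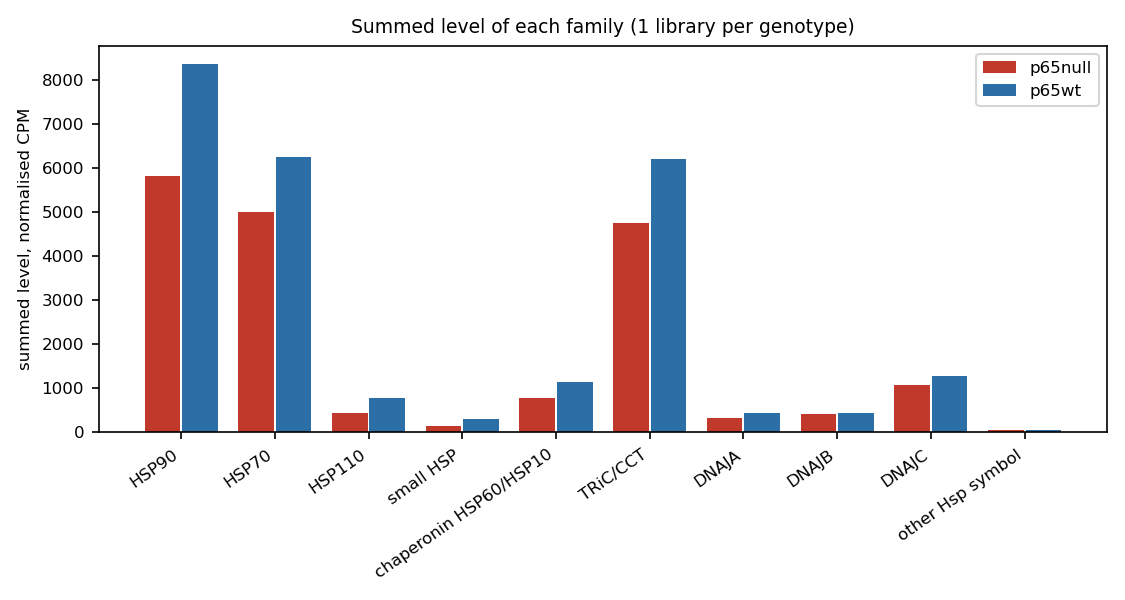
Summed normalised CPM of each family in the p65-null library (red, left) and the wild-type library (blue, right), 1 library each, on a linear axis from 0. HSP90, HSP70 and TRiC hold most of the chaperone message in both libraries, and HSP90 differs most in absolute level, at 5833 against 8366 normalised CPM.

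The symbol rule also took in genes that are not core chaperones. Hspbp1, a nucleotide exchange factor of HSP70, had a log2 ratio of 0.21 (0.06 to 0.35), or -0.34 after the correction. Hspb11, an intraflagellar transport protein, had 9.84 normalised CPM in the p65-null and 6.58 in the wild-type library, a log2 ratio of 0.58 (0.24 to 0.92), or 1.08 after the correction. Under the expression minimum lay Hspb2, Hspb7, Hspb9, Dnajc6, Dnajc22 and Cct6b. Hspb7, a muscle protein, had 16 fragments against 7, and Dnajc22 had 23.5 against 7.5. Hspb2 had 7 against 10.5, Dnajc6 had 1 against 2, and Hspb9 had 2 against 0.

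Regulators and partners outside the symbol rule were read from lists. Of all measured genes, 13.7% were lower and 12.2% higher by 2-fold or more, to be read beside the list counts. The heat shock factor list had 4 measured genes, Hsf1, Hsf2, Hsf4 and Hsbp1, which is not itself such a factor. Hsf1, the main activator of the heat shock response, had 85.9 normalised CPM in the p65-null library. In the wild-type library Hsf1 had 95.5, giving a log2 ratio of -0.15 (-0.26 to -0.05), or -0.78 after the correction. Its inhibitor Hsbp1 was at 0.56. Hsf2 was at -1.18 (-1.46 to -0.92), or -0.41 after the correction, and Hsf4 at 1.499 (0.78 to 2.25), or 0.90. Among 23 co-chaperones of HSP70 and HSP90, 16 (69.6%) lay below 0, against 51.2% of all measured genes, with a median of -0.41. By 2-fold or more, 2 of the 23 were lower and 0 higher. The lower ones were Chordc1 at -1.33 (-1.49 to -1.18) and Cdc37l1 at -1.16 (-1.37 to -0.96), or -0.05 and -0.41 after the correction, and next came Fkbp5 at -0.94, or -1.25. Above 0 lay Bag5 at 0.72, Bag3 at 0.47 and Unc45a at 0.38, or 0.48, 0.01 and -0.10 after the correction. With the correction, 1 of the 23 was lower by 2-fold or more, Fkbp5, against 10.2% of all genes. Higher by as much was 1, Sugt1, which moved from 0.08 to 1.01, against 10.4% of all genes.

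Prefoldin hands actin and tubulin to TRiC, and its median was -0.64. By 2-fold or more, 2 of its 6 genes were lower and 1 higher, against 13.7% and 12.2% of all measured genes. Vbp1 had 9.04 normalised CPM in the p65-null and 41.1 in the wild-type library, a log2 ratio of -2.19 (-2.46 to -1.92), or -1.09 after the correction. Pfdn1 was at -1.03, Pfdn6 at -0.61, or -1.04 after the correction, and Pfdn5 at 1.06 (0.99 to 1.14), or 0.63. Other folding factors of the endoplasmic reticulum had 1 of 18 genes at least 2-fold lower, the oxidase Ero1a at -1.03 (-1.25 to -0.82), or -0.22 after the correction, and a median of 0.09. Higher among them were Herpud1 at 0.98, the collagen chaperone Serpinh1 at 0.64 and Calr at 0.49, or 0.54, 0.08 and 0.27 after the correction. Next to Ero1a among the lower stood Sec63 at -0.52, or 0.10 after the correction, and Hyou1 at -0.36.

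Regulators of the unfolded protein response had a median of 0.07. By 2-fold or more, 2 of 9 genes were higher and 0 lower, against 12.2% and 13.7% of all measured genes. After the correction the median was -0.22, with 6 of 9 below 0, 0 higher and 1 lower by 2-fold or more. Trib3 was at 1.59 (1.28 to 1.92) and Xbp1 at 1.06 (0.96 to 1.16), or 0.98 and 0.64 after the correction, and Atf4 was at 0.10, or -0.31. Ppp1r15a was at -0.48, or -1.03 after the correction, and Ern1 at -0.24. Mitochondrial quality control had 1 of 12 genes at least 2-fold higher, the iron-sulfur cluster J-protein Hscb at 1.11 (0.76 to 1.45), or 0.86, and a median of 0.01. After the correction that median was -0.23, with 8 of 12 below 0. Spg7 and Clpb were at 0.42 and 0.36, Spg7 being at -0.05 after the correction, and Yme1l1, Afg3l2 and Clpp at -0.73, -0.60 and -0.32, Yme1l1 being at 0.39. Trap1, the mitochondrial HSP90, had 146 normalised CPM in the p65-null and 118 in the wild-type library, a log2 ratio of 0.30 (0.22 to 0.39), or -0.0021 after the correction.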

How the data were processed

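Total RNA of 1 p65-null and 1 wild-type culture was sequenced on an Illumina instrument, per the labels. Per the submitters' processing notes, the genome was mm10 and the tools included STAR 2.4, edgeR, HOMER and bcl2fastq 2.16, without roles, and which annotation, strand setting and filters were used was not stated. The deposited table holds a scaled signal rather than raw counts: both columns sum to 18117930 (p65-null) and 18117934 (wild-type). Values were whole multiples of 1 step, 0.587 and 0.436, for all 14648 and 14708 nonzero values up to 3000 units (100%, tolerance 0.0055 units), and since even multiples prevailed (75.7% and 72.8% of values up to 20 steps), 2 steps were taken as 1 fragment. The recovered reads got no count test (0 genes called), because with 1 library for each genotype no residual degrees of freedom exist.

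Transcripts were matched to symbols through a RefSeq table of GRCm38.p6 (16743), otherwise through GENCODE M21 (83), and 55 stayed unmatched. Libraries were normalised with TMM factors (edgeR 4.0.16, R 4.3.3), with factors of 0.981 for p65-null and 1.02 for wild-type. Where 1 library had 0 fragments, the floor of 3 fragments was used, and no ratio was formed where both had 3 or fewer. Intervals are exact Clopper-Pearson at 95%, and fragments without molecular tags make them counting error only. Called means 2-fold. The measured genes had a median of 404 fragments in the p65-null and 599 in the wild-type library. Length and GC content are those of the longest matching GENCODE transcript, and loess used a span of 0.3. Ratios and intervals were also tested on simulated data. Promoter sequences are RefSeq's (GRCm38.p6).

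The members, families, compartments and lists were chosen with earlier results of these data known. Named are members at least 2-fold apart, the 3 most abundant and the extreme members of each family, members nearest 2-fold or under the minimum, and in each list up to 3 genes higher and 3 lower by the interval end nearest 0; other names were chosen after their values were seen. Raw counts had been assumed when the analysis was planned, and recovered fragments took their place. The alternatives were scaling by ribosomal protein genes, upper quartiles, total counts or DESeq2 1.42.0 size factors, leaving out the 10 most abundant genes, no minimum or 5 CPM, the GC and length correction, adding 2 fragments to each count, calling by the nearer interval end, and using means instead of medians.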

Additional observations from a re-analysis of the deposited data

How the results depend on the processing

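No paired analysis was possible because each genotype has 1 library. With DESeq2 size factors, or without the 10 most abundant genes, the counts and medians kept their direction and stayed within counting error or 1.5 times the count. With ribosomal protein scaling 17 members were lower and 1 higher by 2-fold or more, against 24.8% and 7.42% of all genes. The median of the members was -0.65. The family medians were -0.73 for DNAJA, -0.62 for DNAJB, -0.36 for DNAJC, -1.54 for HSP110, -0.74 for HSP70, -0.96 for HSP90, -0.71 for TRiC, -0.87 for HSP60/HSP10, -0.90 for small HSP and -0.011 for the other Hsp symbols. By compartment they were -0.81 for cytosol or nucleus, -0.64 for endoplasmic reticulum, -0.82 for endosome or vesicle, -0.51 for mitochondrion and -0.25 for the unassigned. With upper quartile scaling 4 members were 2-fold higher (14.3% of all genes) and the median was -0.14. Family medians were -1.02 for HSP110, -0.22 for HSP70, -0.44 for HSP90, -0.20 for TRiC, -0.35 for HSP60/HSP10 and -0.39 for small HSP. Compartment medians were -0.12 for endoplasmic reticulum, -0.30 for endosome or vesicle and 0.0069 for mitochondrion. With total counts they were -0.014 for DNAJC, -0.61 for HSP90, -0.37 for TRiC and -0.52 for HSP60/HSP10. With the GC and length correction 4 members were 2-fold higher and 10 lower (10.4% and 10.2% of all genes). Family medians were -1.02 for HSP110, -0.20 for HSP90, -0.37 for TRiC, -0.57 for HSP60/HSP10 and -0.91 for small HSP. Compartment medians were 0.084 for endoplasmic reticulum, -0.25 for endosome or vesicle and -0.34 for mitochondrion. Without a minimum 5 members were 2-fold higher (15.5% of all genes), and the medians were -0.19 for TRiC and -0.10 for small HSP. With 5 CPM, DNAJC was at -0.042. These scalings multiply all ratios of a library alike; the cause of the shifts after the GC and length correction was not tested. Of the 10 genes called, 9 stayed past 2-fold the same way under upper quartile scaling (Hspa1b at -0.96), ribosomal protein scaling (Hspa2 at 0.89) and the correction (Hspa2 at 0.95), 10 under the other scalings and the prior count, and 0 reversed. Genes under about 100 fragments, such as Dnajc28 and Hspa1l, have wide intervals at this depth.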

Other observations

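The nearest measured genes on either side of the 10 called chaperone genes were looked up after their values were seen. Hspb1, at -3.19, lies between Mdh2 at -0.55 and Ywhag at -0.81, and Hspa12b, at 2.71, between Atrn at -0.16 and 1700037H04Rik at 0.17. Hspa9, at -1.33, lies beside Etf1 at -1.75 and Ctnna1 at -0.82, and Dnajc21, at -1.25, beside Lmbrd2 at -2.06 and Brix1, a gene of ribosome assembly, at -1.06. Dnajc2, at -1.78, has Pmpcb at -0.35 and Psmc2 at -0.50 as neighbours. Hspa4l, at -2.38, lies between Intu at 0.21 and Plk4 at -0.996, and Hsph1, at -1.13, between Medag at -0.70 and B3glct at -0.48. Hspa12a, at -2.05, lies between Gfra1 at 0.65 and Pdzd8 at -1.03. Hspa1b, at -1.07, lies between 1110038B12Rik at -0.93 and Hspa1a at -0.34, and Hspa2, at 1.29, between Zbtb1 at -0.38 and Plekhg3 at 0.29.

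The 27 chaperone genes over 100 CPM had a median log2 ratio of -0.40, with 23 below 0. The 32 genes from 10 to 100 CPM had a median of -0.11 with 18 below 0, and the 10 genes under 10 CPM a median of -0.28 with 6 below 0. After the GC and length correction the 3 medians were -0.38, -0.03 and -0.0035.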
